A study of Mus musculus with 4 samples.

Results

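The 9 genes of the core hedgehog pathway were followed in mouse embryonic stem cells (ESC) kept for 24 h with solvent or with 5 µM MS-275. They were taken by their symbols from the 28250 genes listed for each library: the ligands Shh, Ihh and Dhh, the receptor genes Ptch1, Smo and Hhip, and the transcription factors Gli1, Gli2 and Gli3. The set was selected on the values of these 4 libraries, since Gli2 was among the genes with the largest falls with MS-275. The difference of the 9 genes between MS-275 and solvent is therefore given as a description, with no test. The cells are TBV2, a single mouse ESC line. The labels describe its upkeep on feeders with LIF and its plating on gelatin, and do not say whether feeder cells were present in the RNA-seq cultures. MS-275 is an inhibitor of class I histone deacetylases. RNA-seq of poly(A) RNA was done on 2 libraries with solvent and 2 with MS-275, and LIF was present in both conditions. The labels do not say that the duplicates were separate cultures, so the p-values measure only the spread between these libraries, which may be technical.

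In the absence of ligand, the receptor Ptch1 holds the membrane protein Smo inactive, and Gli proteins are cut or held back as repressors. When a hedgehog ligand binds Ptch1, Smo moves into the primary cilium and Gli2 and Gli3 are kept as activators. Gli1 and Ptch1 are themselves targets of the pathway, and Hhip is a membrane protein that binds and sequesters the ligands. Hedgehog signalling patterns the neural tube, the limb and the gonad in the embryo.

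Of the 9 genes, Gli2 had the largest fall, at 11.4 times less signal with MS-275, and Dhh had the largest rise, at 15.3 times more from a level near the filter. Ptch1, Smo, Gli1, Hhip and Gli3 also had lower means with MS-275, by between 1.33 times (Gli3) and 3.21 times (Gli1). Shh and Ihh had values of at most 0.00509 in all 4 libraries. All 9 genes passed the filter for low values, which asked for 2 or more libraries at 0.001 or above, and Shh passed it only through the MS-275 libraries.

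The promoters of Gli2 and Dhh are shown because these 2 genes had the largest differences in opposite directions. RefSeq windows on GRCm38.p6 were given for 7 of the 9 genes, and those of Shh and Gli1 were not used here. Capitals mark matches of the core of the Gli site, ACCACCC, and of the GC box bound by Sp factors, CCCGCCC, on either strand.
Gli2, chr1:119053620-119053869, minus strand: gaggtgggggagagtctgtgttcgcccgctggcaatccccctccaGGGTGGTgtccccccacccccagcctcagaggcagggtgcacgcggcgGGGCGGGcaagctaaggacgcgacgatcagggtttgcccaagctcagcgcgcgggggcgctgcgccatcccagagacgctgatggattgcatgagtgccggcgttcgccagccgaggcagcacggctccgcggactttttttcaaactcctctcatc
Dhh, chr15:98898541-98898790, minus strand: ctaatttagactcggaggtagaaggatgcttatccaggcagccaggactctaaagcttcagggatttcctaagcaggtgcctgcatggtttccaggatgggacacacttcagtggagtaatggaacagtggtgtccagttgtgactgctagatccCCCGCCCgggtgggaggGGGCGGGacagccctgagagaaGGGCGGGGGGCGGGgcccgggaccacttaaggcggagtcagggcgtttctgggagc
Each line gives the 250 bases before the annotated start, 5′ to 3′. The window of Gli2 held 1 match of the core Gli site, 205 bases before the start, and 1 GC box, 157 bases before it. That of Dhh held 4 GC boxes between 49 and 95 bases before the start and no match of the core Gli site. Over all 32851 windows of the same length, 3.92% held the core Gli site and 23.4% a GC box. The longer Gli consensus GACCACCCA, which contains the core, was in 0.225% of windows and in none of the 7. CpG pairs numbered 22 before Gli2 and 9 before Dhh, and between 15 (Smo) and 41 (Ptch1) before the other 5, against a median of 6 over all windows. The GC content was 67.2% before Gli2 and 59.6% before Dhh, against a median of 52.4%. A match is a description of the letters and not a bound site. Whether transcription in these cells begins at the annotated starts was not tested.

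Values are normalized expression values as deposited, a signal per gene on a linear scale. Gli2, the main activator among the Gli factors, had values of 0.238 and 0.198 in solvent replicates 1 and 2 and of 0.0278 and 0.0104 in MS-275 replicates 1 and 2. Both MS-275 libraries lay far below both solvent libraries. With solvent the mean was 0.218 ± 0.0283, against 0.0191 ± 0.0123 with MS-275 (SD, n = 2 in each group). On the log2(value + 0.005) scale, on which all log2 fold changes here are given and which understates the change of low genes, Gli2 was at -3.31 (SE 0.52), with -2.89 in pair 1 and -3.72 in pair 2. A pair is a solvent and an MS-275 library of the same replicate number. By this fall Gli2 was at rank 4 of 20336 genes, between Fgf17, an FGF ligand, at -3.45 and Mcf2, a guanine nucleotide exchange factor, at -3.20. Leaving out 1 library at a time gave -3.85 to -2.76 for Gli2.

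Gli1, an activator and a readout of the pathway, had values of 0.210 and 0.183 with solvent and of 0.0813 and 0.0414 with MS-275. The groups did not overlap, and the log2 fold change was -1.67 (SE 0.44), with -1.32 and -2.02 in the pairs. Gli3, the main repressor among the Gli factors, had values of 0.0582 and 0.0526 with solvent and of 0.0476 and 0.0357 with MS-275. Its values also did not overlap between the groups, but the log2 fold change was only -0.38 (SE 0.52), with -0.27 and -0.50 in the pairs. With the replicate block the SE of Gli3 was 0.27, and those of Gli1 and Gli2 were 0.24 and 0.27. Of the 3 factors, Gli2 had the largest difference and Gli3 the smallest in both pairs.

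**Figure D1:**
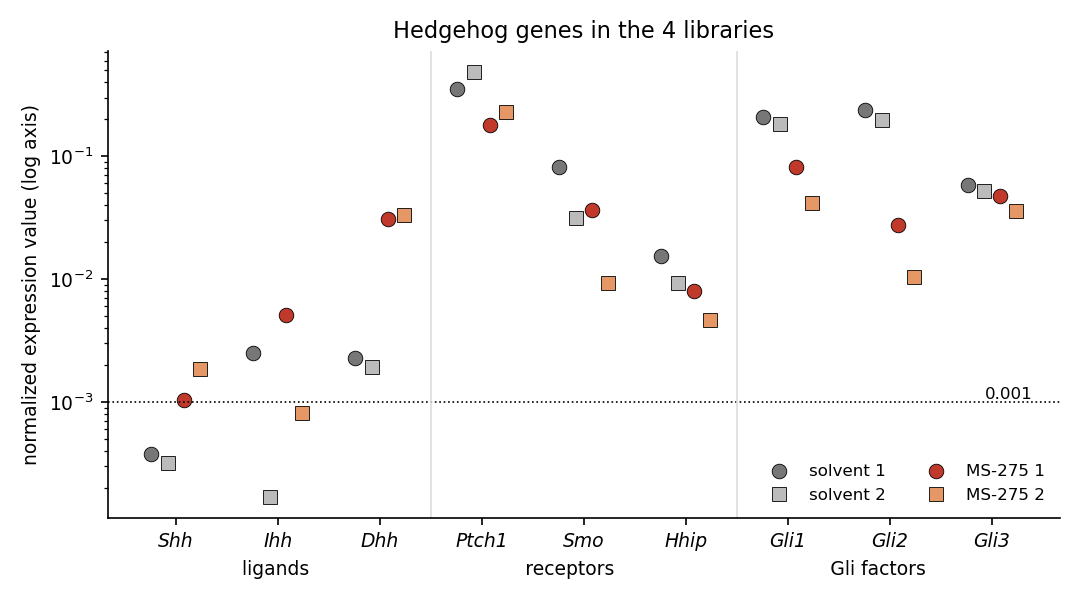
Normalized expression values (log axis) of the 9 hedgehog genes in solvent replicates 1 and 2 (grey) and MS-275 replicates 1 and 2 (red and orange); circles are replicate 1, squares replicate 2, and the dotted line is the 0.001 of the filter. Gli2 goes from 0.238 and 0.198 to 0.0278 and 0.0104, Dhh from 0.00229 and 0.00191 to 0.0310 and 0.0334, and the libraries of Smo and Ihh overlap between the conditions.

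Among the receptor genes, Ptch1 had values of 0.353 and 0.484 with solvent and of 0.180 and 0.230 with MS-275. Its groups did not overlap, and the log2 fold change was -1.003 (SE 0.41). Smo, the membrane protein that passes the signal on, had values of 0.0824 and 0.0312 with solvent and of 0.0364 and 0.00930 with MS-275. Within each replicate pair Smo was lower with MS-275, at -1.08 and -1.34, but MS-275 replicate 1 lay above solvent replicate 2. Its log2 fold change was -1.21 (SE 0.74), and it was -0.44 without MS-275 replicate 2 and -1.98 without MS-275 replicate 1. Hhip had values of 0.0153 and 0.00925 with solvent and of 0.00806 and 0.00461 with MS-275. The groups of Hhip did not overlap, and the log2 fold change was -0.60 (SE 0.48).

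Of the ligands, Dhh, the ligand known from the gonad and the peripheral nerve sheath, had values of 0.00229 and 0.00191 with solvent and of 0.0310 and 0.0334 with MS-275. Both MS-275 libraries lay above both solvent libraries, and the log2 fold change was 2.39 (SE 0.52), with 2.30 and 2.47 in the pairs. Dhh was at rank 261 by rise. Shh, the ligand of the floor plate and limb, had values of 0.00038 and 0.00032 with solvent and of 0.00103 and 0.00187 with MS-275. Ihh, the ligand of cartilage and visceral endoderm, had values of 0.00251 and 0.00017 with solvent and of 0.00509 and 0.00082 with MS-275. The libraries of Ihh differed more by replicate number than by condition, and its log2 fold change of 0.30 (SE 0.30) turned to -0.10 without MS-275 replicate 1 and to -0.04 after quantile normalization. Shh was at 0.27 (SE 0.17). All 4 libraries had at most 8 distinct alignment positions on the exons of Shh and at most 6 on those of Ihh, so that a difference of either gene was not detectable at this depth.

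The 9 genes were read against all 20336 genes that passed the filter. Over all of them the log2 fold change had a median of 0.20, and of -0.01 after median-ratio scaling. Of the 9 genes, 6 were lower with MS-275 in both pairs, where 26.5% of all genes were, and 3 were higher in both, where 50.0% were. The groups did not overlap for 5 genes that were lower (Gli1, Gli2, Gli3, Hhip and Ptch1; 12.0% of all genes) and for 2 that were higher (Dhh and Shh; 32.3%). For 2-fold counts, values under 0.001 were set to 0.001. A fall of at least 2-fold in both pairs was seen for Gli1, Gli2 and Smo, 3 of the 9 genes (2.83% of all genes). By the same rule Dhh alone had a rise of that size (16.0%). As listed, Shh was also 2.71 and 5.84 times higher in pairs 1 and 2, and Ihh 2.03 and 4.82 times. Both genes had values under 0.001. These counts come from the contrast by which the set was proposed, and nothing is read from them. In every setting that kept all 9 genes, 6 or 7 of them had a negative log2 fold change.

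**Figure D2:**
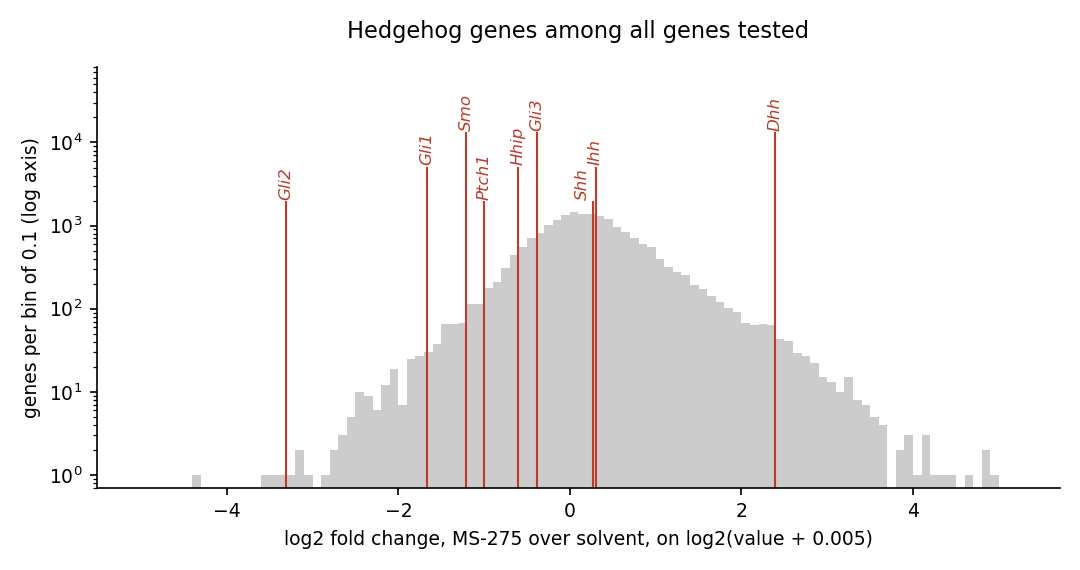
Histogram of the log2 fold change (MS-275 over solvent, in bins of 0.1; the count axis is logarithmic) of all 20336 genes tested, with red lines at the 9 hedgehog genes; the height of a line has no meaning. Gli2 at -3.31 lies in the sparse left tail, Dhh at 2.39 in the right, and Shh and Ihh near the median of 0.20.

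Levels were compared between genes only per length, as distinct alignment positions per kb of exon per 1000000 distinct positions on exons, from the alignments deposited with each library. With solvent the order was Ptch1 at 40.5 ± 9.56, Gli1 at 34.6 ± 5.67 and Gli2 at 27.7 ± 3.40 (SD, n = 2). Ptch1 and Gli1 overlapped between libraries, and the lower library of Gli1 (30.6) lay just above the higher one of Gli2 (30.1). Smo at 7.17 ± 0.180 and Gli3 at 5.83 ± 2.05 followed, and overlapped each other. Hhip was at 1.71 ± 0.179, and Dhh, Ihh and Shh were at 0.309 ± 0.256, 0.214 ± 0.219 and 0.0819 ± 0.0362. The libraries of Ihh overlapped those of Dhh and of Shh, and both libraries of Dhh lay above both of Shh. With MS-275 the order was Ptch1 at 23.4 ± 4.72, Gli1 at 11.0 ± 1.22 and Dhh at 6.92 ± 3.12, followed by Gli3 at 4.79 ± 0.336, Smo at 2.90 ± 1.03 and Gli2 at 2.73 ± 1.03. Hhip was at 0.976 ± 0.320, and Ihh and Shh were at 0.246 ± 0.0414 and 0.241 ± 0.127. The libraries of Dhh, at 9.13 and 4.72, overlapped those of Gli3, and the libraries of Smo overlapped those of Gli2. Gli2 was above Gli3 in both solvent libraries and below it in both MS-275 libraries. By this measure Gli3 overlapped between the conditions, unlike its values, at 7.27 and 4.38 with solvent and 4.56 and 5.03 with MS-275. Smo, whose values overlapped, did not, at 7.05 and 7.30 with solvent and 2.17 and 3.63 with MS-275.

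The alignments allow a look along the gene. Gli2 lies on mm9 at chr1:120730709-120950196 on the minus strand, with 16 exons in the GENCODE M1 annotation. Distinct positions on its exons numbered 1429 and 1146 in the alignments deposited with solvent replicates 1 and 2, and 77 and 175 in those deposited with MS-275 replicates 1 and 2. All but 1 or 2 of the 16 exons had positions with solvent (15 and 14 exons), and 12 and 14 had them with MS-275. The last exon, which takes up 4046 of the 6869 exon bases, held 66.6% and 70.9% of the exon positions with solvent and 72.7% and 66.9% with MS-275. The lower level was thus spread along the transcript. In the introns, Gli2 had 435 and 363 positions with solvent and 54 and 63 with MS-275, 6.49 times fewer with MS-275 at equal totals, against 10.1 times fewer on exons. Within 5 kb before the annotated start there were 116 and 90 positions with solvent and 1 and 8 with MS-275. No gene of the annotation lies in these 5 kb, and the reads carry no strand.

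Dhh lies on mm9 at chr15:98723462-98728971 on the minus strand and has 3 exons. Its exons held 8 and 2 distinct positions in the alignments deposited with solvent replicates 1 and 2, and 121 and 82 in those with MS-275. All 3 exons had positions in both MS-275 libraries. With so few positions with solvent, the size of the fold change of Dhh depends on the pseudocount, and was 1.24 with a pseudocount of 0.02 and 3.42 with 0.001 on the log2 scale. Ptch1, at chr13:63610261-63674474, had 2149 and 1465 exon positions with solvent and 987 and 972 with MS-275, and 556 and 175 intron positions against 186 and 107. Gli1, at chr10:126766945-126778645, overlaps the end of Arhgap9 on the other strand, and reads in the overlap cannot be told apart between the 2 genes. The exons of Gli1 held 1018 and 774 positions with solvent and 219 and 333 with MS-275. Without bases shared with another gene they held 1010 and 764 with solvent and 214 and 329 with MS-275.

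**Figure D3:**
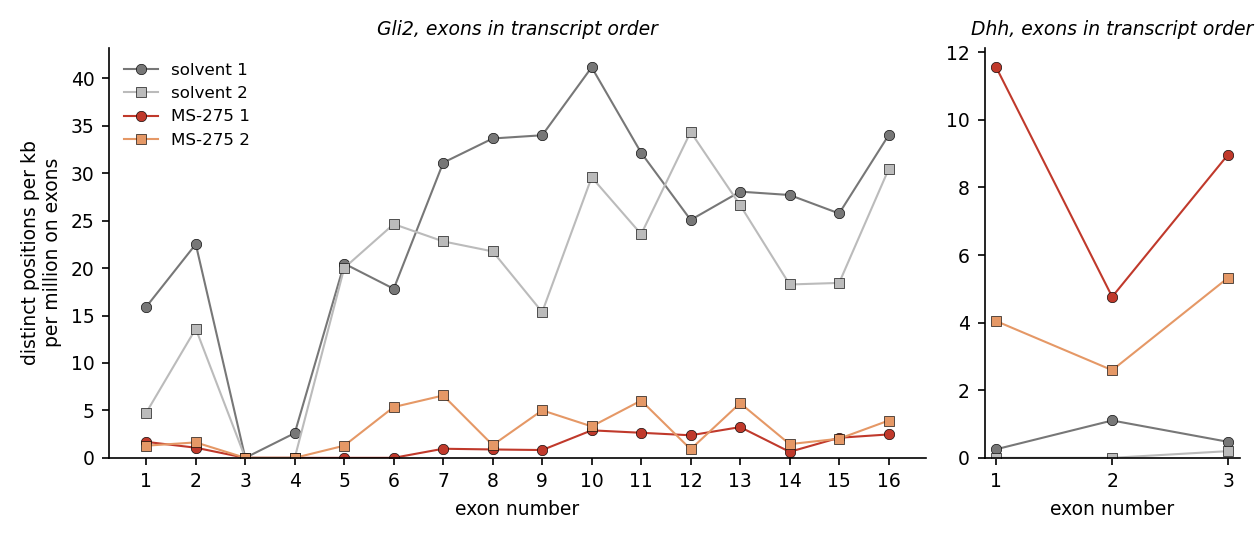
Distinct alignment positions per kb of exon per 1000000 on exons, by exon number in transcript order, for Gli2 (16 exons) and Dhh (3 exons), in the alignments deposited with solvent replicates 1 and 2 (grey) and MS-275 replicates 1 and 2 (red and orange). The MS-275 lines of Gli2 lie near the axis along the whole transcript, while those of Dhh lie above the solvent lines on each of the 3 exons.

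The alignments and the values of a library did not rank the replicates alike. Over the genes of each comparison, the log2 values of a library were set against the log2 of all alignments per exon length, repeats included. Pearson's r was between 0.909 and 0.922 with the alignments filed under its fellow replicate, and between 0.784 and 0.878 with its own. These r are across genes, which are not independent replicates, and only the replicate 1 files hold repeats. For Gli2 the values were higher in MS-275 replicate 1, and the positions were higher in MS-275 replicate 2. The condition of each file is the same either way.

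The other genes of the pathway were not used to choose the 9 genes and were tested in the fit across all genes. The gene lists here and below were chosen with earlier results of these data known, so their counts are not independent of the data. In limma without a block for replicate pairs, 0 of 43 pathway genes tested passed an adjusted p of 0.05 in either direction, and without adjustment 4 were higher and 1 lower at 0.05. Over all 20336 genes this fit called 1 gene higher (0.00492%), the mucin Muc3, and 0 lower (2974 higher and 564 lower unadjusted). With the replicate block, 5 of the 43 rose (Scube1, Cdon, Kif3a, Prkaca and Btrc; background 21.0%) and 3 fell (Cul1, Evc and Evc2; background 6.46%). Over all genes the block called 4277 higher and 1314 lower, and 3379 higher and 2864 lower with median-ratio scaling. The median log2 fold change of the 43 genes was 0.02, and that of all genes was 0.20. Limma-voom on distinct positions called 4 higher and 6 lower without the block.

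Among 7 genes of ligand modification and release, only Scube1 passed with the block. Scube1, a secreted and membrane-bound relative of the Scube proteins that help release hedgehog ligands, had values of 0.00645 and 0.00355 with solvent and of 0.0489 and 0.0356 with MS-275. The change on the log2 scale was 2.24 (SE 0.60; limma adjusted p 0.0971, and 8.17e-05 with the block). The others named by rule were Disp2 at 0.63, Scube3 at -0.21 and Hhat, the acyltransferase that adds palmitate to the ligands, at -0.31, and none of these 3 passed in either fit.

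Of the 5 co-receptor genes, Cdon, a cell surface protein that binds hedgehog ligands, was the only one past the threshold with the block. It had values of 0.0655 and 0.0401 with solvent and of 0.163 and 0.134 with MS-275, a log2 fold change of 1.44 (SE 0.44; limma adjusted p 0.128, and 0.000400 with the block). Boc, its close relative, was at -0.18, with 0.19 and -0.55 in the pairs. Gas1, a membrane-anchored co-receptor, was at -0.59, and the large endocytic receptor Lrp2 at 0.09. These 3 did not pass in either fit.

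Of 19 regulators of Gli proteins, 2 rose and 1 fell with the block. Prkaca, 1 of the catalytic subunits of protein kinase A, which marks Gli proteins for processing, was at 0.95 (SE 0.40; limma adjusted p 0.252, and 0.00606 with the block). Btrc, the ubiquitin ligase subunit that recognises phosphorylated Gli proteins, was at 0.64 (0.436, and 0.0385 with the block), and it lost the call with the block and median-ratio scaling (0.36, adjusted p 0.238). Cul1, the scaffold of the same ligase, was lower, with values of 0.357 and 0.383 with solvent and of 0.188 and 0.0865 with MS-275. The change on the log2 scale was -1.50 (SE 0.44; limma adjusted p 0.119, and 0.000629 with the block). Sufu, which holds Gli proteins in the cytoplasm, was at 0.68 and the kinase Csnk1d at -0.49. Neither passed in these fits, but limma-voom on distinct positions with the block called both (adjusted p 0.00630 and 0.000805), and the block with median-ratio scaling called Csnk1d (-0.78, 0.0126). Btrc lay outside the rule for named genes and was added after its value was seen.

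Of 12 genes of Smo transport and the cilium, Kif3a rose and Evc and Evc2 fell with the block. Kif3a, a motor subunit of transport into the cilium, was at 1.09 (SE 0.40; limma adjusted p 0.193, and 0.00283 with the block). Evc and Evc2, partners at the base of the cilium that act below Smo, were at -1.07 (SE 0.62; 0.447, and 0.00907 with the block) and -0.82 (SE 0.58; 0.566, and 0.0237 with the block). Iqce, which anchors the Evc pair, was at 0.61 and did not pass.

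**Figure D4:**
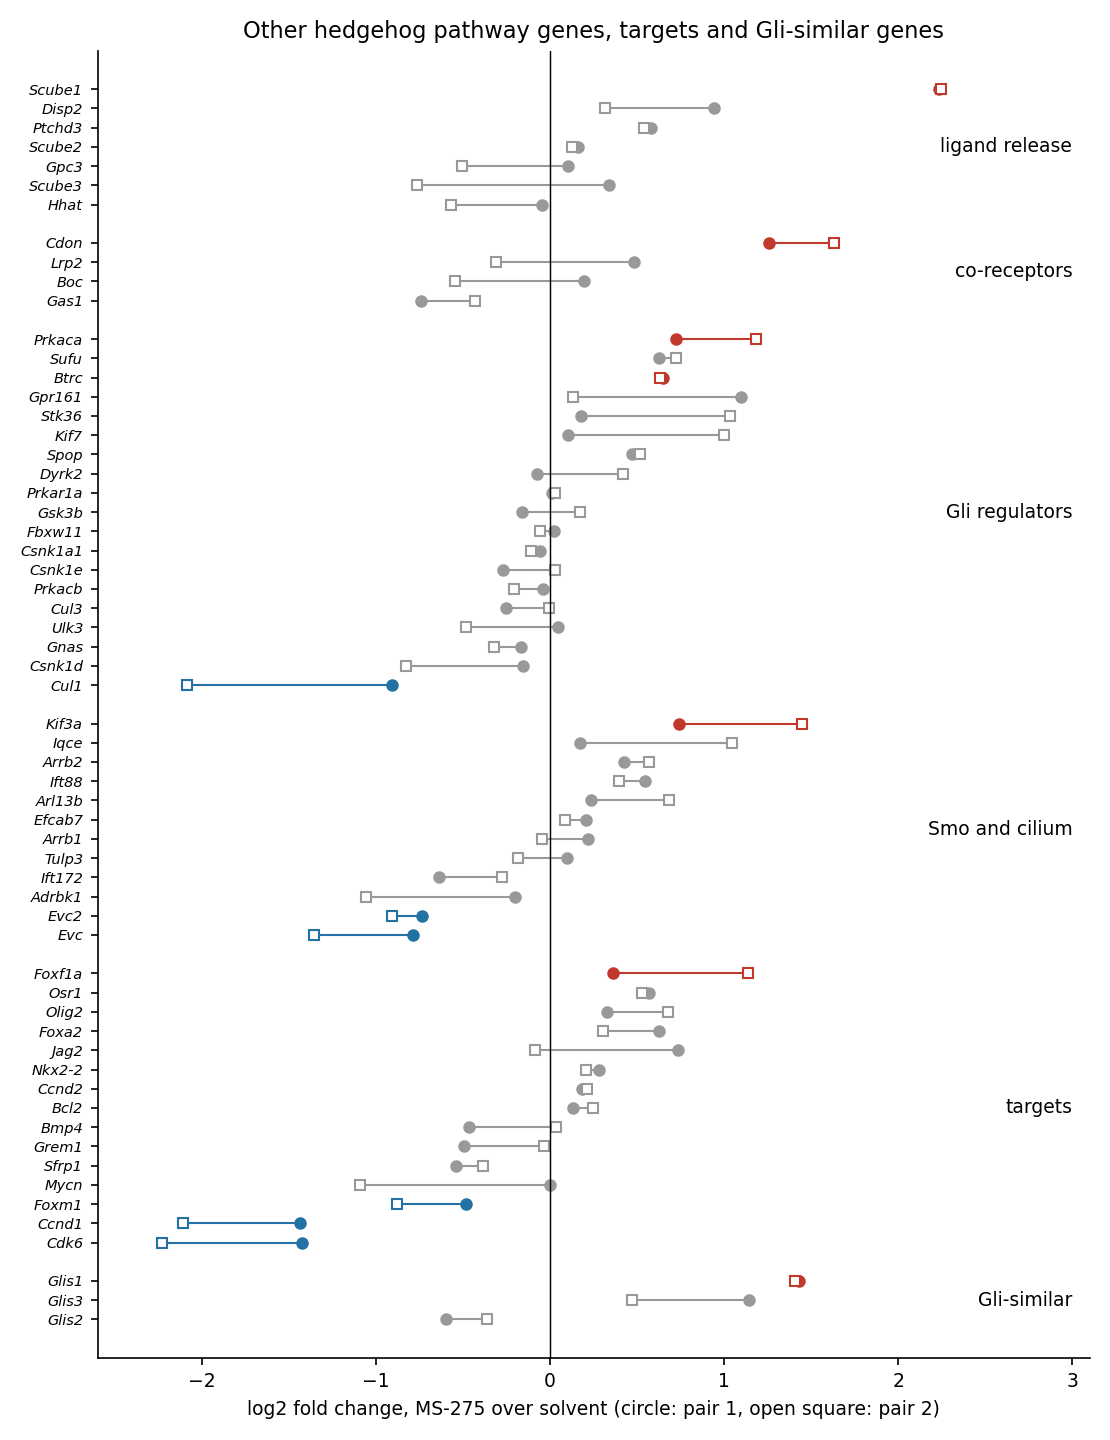
Log2 fold change (MS-275 over solvent) of other pathway genes, targets and Gli-similar genes, with a filled circle for pair 1 and an open square for pair 2 joined by a line; red genes rose and blue genes fell with the replicate block (adjusted p under 0.05), and grey genes did not pass. Scube1 at 2.24 is farthest right, and Cul1, Ccnd1 and Cdk6 are farthest left.

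Known targets of Gli factors in other tissues and the Gli-similar genes made up 21 entries, of which 18 were tested. Limma without the block called 0 in either direction (3 higher and 2 lower unadjusted). With the block 2 rose (Foxf1a and Glis1; background 21.0%) and 3 fell (Cdk6, Ccnd1 and Foxm1; background 6.46%). Ccnd1, cyclin D1 of the G1 phase, had values of 0.254 and 0.301 with solvent and of 0.0906 and 0.0658 with MS-275. The change on the log2 scale was -1.78 (SE 0.38; limma adjusted p 0.0655, and 6.00e-05 with the block). Its partner kinase Cdk6 was at -1.83 (SE 0.59; 0.151, and 0.000437 with the block). Foxm1, a forkhead factor of the cell cycle, was at -0.68 (0.560, and 0.0343 with the block) and was named after its value was seen. Foxf1a, a forkhead factor of gut mesenchyme, was at 0.75 (0.252, and 0.0350 with the block), with values between 0.00092 and 0.00852. With at most 3 distinct positions on its exons in any library, Foxf1a was too low for a difference to be detected by reads, and its call was lost with the block under quantile normalization (adjusted p 0.202) and a pseudocount of 0.02 (0.0609). Osr1 at 0.55 did not pass. Of the Gli-similar zinc finger genes, Glis1 was at 1.42 (SE 0.43; 0.126, and 0.00141 with the block), Glis2 at -0.48 and Glis3 at 0.81, and the last 2 did not pass. The median of the 18 genes was 0.19, against 0.20 over all genes.

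The genes with profiles most like Gli2 over the 4 libraries, by Euclidean distance of centred log2 values, were Fgf17 (0.397), the noncoding gene C330020E22Rik (0.401), Mcf2 (0.411), Vcan (0.534) and Inhbb (0.688). Their log2 fold changes lay between -3.52 (Inhbb) and -2.86 (Vcan, a matrix proteoglycan). They were chosen for this likeness, so their falls are given with no test.

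Inhbb, which encodes an activin and inhibin beta subunit, is also a neighbour of Gli2 on mm9, 361.8 kb away. It had values of 0.284 and 0.127 with solvent and of 0.0226 and 0.00552 with MS-275, and a log2 fold change of -3.52 (SE 0.65), rank 2 by fall. The inhibin beta genes beside the other Gli genes were looked at after this was seen. Inhbe, 7.8 kb from Gli1, was at -1.40 (SE 0.36; limma adjusted p 0.0892, and 0.000799 with the block). Inhbc, 14.7 kb from Gli1, was at -0.93 (SE 0.34; 0.197, and 0.0125 with the block). Inhba, 281.8 kb from Gli3, was at 0.26 (SE 0.49; 0.889, and 0.499 with the block), with values between 0.00218 and 0.0124. Inhbe was listed at 0 in MS-275 replicate 2, and the highest value of Inhbe or Inhbc in any library was 0.0148. Within 1000 kb, 13 other genes tested lay around Gli2. With the block 3 rose (2900060B14Rik, Tmem177 and Sctr) and 2 fell (Inhbb and Tcfcp2l1, at -1.02). Few reads lie behind 2 of these rises. Distinct positions on exons of 2900060B14Rik numbered 1 and 0 with solvent and 7 and 1 with MS-275. Those of Sctr numbered 2 and 2 with solvent and 15 and 20 with MS-275. Inhbb was chosen above for its likeness to Gli2, so its place in this count is no test. Over all genes, 21.0% rose and 6.46% fell with the block. Around Gli1, 10 of 55 rose and 9 fell with the block, and around Gli3, 0 of 5 rose and 1 fell (AW209491). These neighbours were named after their values were seen. Without the block, none of the neighbours of the Gli genes passed in limma, where Muc3 was the only gene called. Arhgap9, which overlaps Gli1, was at -1.62 (SE 0.61; 0.211, and 0.000833 with the block).

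**Figure D5:**
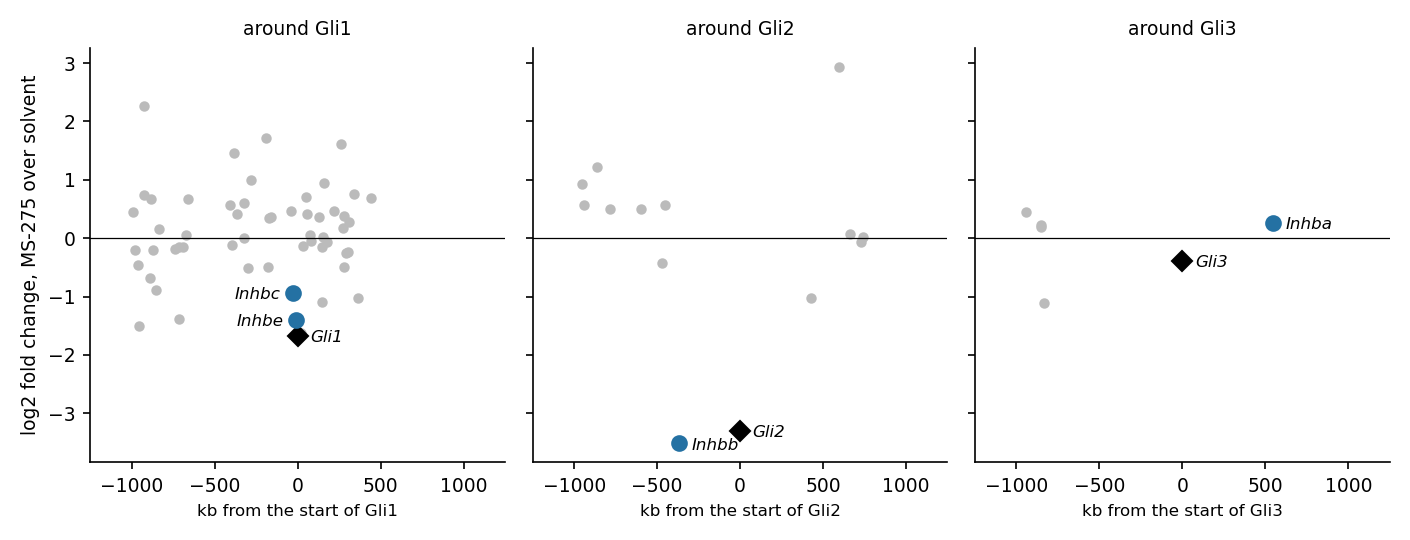
Log2 fold change (MS-275 over solvent) of the genes tested within 1000 kb of Gli1, Gli2 and Gli3 against the distance in kb between gene starts on mm9, with negative distances upstream of the Gli gene; black diamonds are the Gli genes, blue circles the inhibin beta genes and grey circles all others. Inhbb at -3.52 lies beside Gli2 at -3.31, Inhbe and Inhbc lie below 0 beside Gli1, and Inhba at 0.26 lies above Gli3 at -0.38.

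Marker genes of cell types were read beside these results. All 10 ESC markers were present in every library, with summed values of 5.89 and 23.6 with solvent and of 4.88 and 13.9 with MS-275. The gap between the solvent replicates is not read as expression. Dppa5a had values of 0.293 and 5.51 in solvent replicates 1 and 2, but 225 and 191 distinct positions. With repeats included, the alignments on its 619 exon bases numbered 8297 and 191 in the same files. The cause of the gap was not tested. Klf4 had no such gap, with values of 0.336 and 0.348. All 10 ESC markers were lower with MS-275 in both pairs, and 3 fell with the block (Pou5f1, Esrrb and Utf1). For this and the next 3 lists, the shares over all genes were 21.0% higher and 6.46% lower with the block. In both pairs, 50.0% of all genes were higher and 26.5% lower. Of 16 fibroblast markers, which stand for the feeder layer, 8 rose and 0 fell with the block (without it, 4 higher and 0 lower at 0.05 with no adjustment), and their sum went from 0.468 and 0.567 to 0.852 and 0.987. Of the 16, 11 were higher and 3 lower (Col3a1, Dcn and Prrx1) in both pairs, and none was at 0 in any library. Of 10 neural progenitor markers, 4 rose and 2 fell with the block, with sums of 0.208 and 0.131 against 0.217 and 0.204. Pax3 was at 0 in both solvent libraries, and Msx1 and Hes5 in solvent replicate 1. Of 9 endoderm markers tested, 4 rose, with sums over the 10 listed of 0.171 and 0.0532 against 0.350 and 0.267. Ttr was at 0 in all libraries but MS-275 replicate 1. Without the block, 0 genes of these 4 lists passed in either direction. The part of these cell types in the differences of the hedgehog genes was not tested, and in bulk RNA fewer cells of a type and less RNA per cell cannot be told apart.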

How the data were processed

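RNA-seq was done on 2 libraries with solvent and 2 with 5 µM MS-275, grouped by their titles, with the duplicate as replicate 2. The vehicle was not resolved, since the sources name both DMSO and ETOH. As deposited by the authors, 36-base GAIIx reads were mapped to mm9 and turned by Genomatix into a normalized expression signal per gene, and the formula, aligner and version are not given in the sources used here. The 4 values columns of the shorter tables and the authors' ratio tables were not used. The files hold 9785619 to 23467935 alignments of 35 bases per library. In the replicate 1 files 53.2% and 54.4% of the alignments repeat a position, and in the replicate 2 files 0% do, so distinct positions were counted on GENCODE M1 exons. The depth behind a single value is unknown.

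The 20336 genes at 0.001 or above in 2 or more libraries were fitted with limma 3.58.1 (R 4.3.3), lmFit and eBayes with a trend, on log2(value + 0.005), with Benjamini-Hochberg adjustment over all of them. The design kept no replicate block. Replicate numbers were taken as pairs because column headers of the authors share an old mark between both replicate 1 libraries. Same-numbered libraries also deviated together from their group means (r = 0.764 over the 20336 genes). The replicate 1 and replicate 2 files differ in repeated positions, so this r cannot tell paired cultures from a difference in processing. Blocked values are therefore given only beside the main ones. Python 3.11.15, numpy 2.4.6, pandas 2.3.3 and matplotlib 3.10.9 were used. The fits were tested on simulated data.

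Of 120 entries in the gene lists, 117 matched by symbol, 2 by Entrez identifier and 1 (Disp1) was not matched and is not analysed here. Members and lists were chosen with earlier results of these data known. The genes named are the 9 members, the 2 highest and 2 lowest of each pathway list, the co-receptors (1 of which is not reported here), the genes ranked beside Gli2 and the 5 most like it. Alternatives were other pseudocounts, filters, scalings and tests, the replicate block, limma-voom on distinct positions (10 or more in 2 libraries) and each library left out. Promoter sequences are from RefSeq on GRCm38.p6, and all other coordinates are mm9.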

Additional observations from a re-analysis of the deposited data

Results flagged for a closer look

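A signal lay past the annotated end of Dhh, outside the gene model that the values and exon counts use. Within 5 kb past the end, distinct alignment positions numbered 12 and 9 in the alignments deposited with solvent replicates 1 and 2, and 115 and 25 in those with MS-275 replicates 1 and 2. Per 1000000 distinct positions on exons the mean was 1.55 with solvent and 11.95 with MS-275. No gene of GENCODE M1 lies in these 5 kb, the reads carry no strand, and the source of the positions was not tested.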

How the results depend on the processing

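The count of genes called depended on the replicate block. Without it 1 gene was higher and 0 lower, with both at 0 for pseudocounts of 0.001 and 0.02, no filter, quantile normalization, median-ratio scaling and no trend, and 466 higher and 65 lower at a mean value of at least 0.01. With the block, 4277 were higher and 1314 lower, with 3379 and 2864 under median-ratio scaling, 2936 and 2961 under quantile normalization, 4216 and 1220 with a pseudocount of 0.001 and 3790 and 1158 with 0.02. Limma-voom on distinct positions called 2027 higher and 1300 lower, and 4053 and 3613 with the block. Leaving out 1 library gave 0 to 160 higher and 0 to 29 lower. In those fits the lone library of a group is assumed to vary like the other group.

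Other pathway genes numbered 0 higher and 0 lower. They became 1 and 0 at a mean of at least 0.01, 5 and 3 with the block, 4 and 5 with block and median-ratio scaling, 6 and 7 with block and quantile normalization, 5 and 3 with the block at either pseudocount, 4 and 6 with voom and 10 and 9 with voom and the block. Targets and Gli-similar genes became 0 and 1 at a mean of at least 0.01, 2 and 3 with the block, 2 and 6 with block and median-ratio scaling, 1 and 5 with block and quantile normalization, 2 and 3 (pseudocount 0.001) and 1 and 3 (0.02) with the block, 1 and 4 with voom and 2 and 6 with voom and the block. Leaving out 1 library gave 0 for both lists in both directions.

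Among genes named without a call, signs turned for Boc (0.10 with voom, 0.078 with voom and the block), Inhba (-0.21 after quantile normalization, with and without the block) and Lrp2 (-0.11 under quantile normalization, -0.18 under median-ratio scaling, with and without the block). Leaving out 1 library gave -0.96 to 0.60 for Boc, -1.05 to 0.090 for Glis2, -0.72 to 0.11 for Hhat, -0.28 to 0.80 for Inhba, -0.68 to 0.85 for Lrp2 and -0.56 to 0.13 for Scube3. Of the named genes not called with the block, voom with the block called Disp2, Sufu, Csnk1d, Glis2 and Glis3, median-ratio scaling with the block Csnk1d and Glis2, and quantile normalization with the block Gas1, Hhat and Glis2. The cause was not tested. Gli2 ranged from -3.85 to -2.64 over all settings. With 2 libraries per group, small differences could not be detected, and Shh and Ihh rest on a few alignments each.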
